A study of Mus musculus with 17 samples.

Results

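Corpus callosum at the end of cuprizone feeding was compared with age-matched mock tissue. The comparison takes the libraries whose title gives 5 weeks, which are 5 of the 17 libraries of the series, 3 labelled cuprizone and 2 labelled mock. Both groups were male mice of genotype GFAP-Cre+/- Rpl22HA/wt that were 8 to 9 weeks of age when feeding began. Cuprizone is a copper chelator that kills mature oligodendrocytes, and the treated mice ate chow containing 0.2% of it by weight for 5 weeks and were sampled before any return to standard chow. The mock mice ate standard chow and carry the same alleles. In both groups Cre recombinase under the GFAP promoter switches on an HA tag on the ribosomal protein Rpl22, so that tagged ribosomes, with the mRNA they are translating, can be pulled from a lysate of the dissected tract with an antibody. The labels give astrocytes as the cell type and do not name the GFAP-Cre line. RNA from before the pull-down was not analysed here, so enrichment for astrocytes was not tested. Libraries taken after 0.5 or 2 weeks of recovery on standard chow (5.5 and 7 weeks in all), with their own mock controls, are cited only for values set beside those at 5 weeks. They belong to a second batch, so time and batch cannot be told apart.

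Astrocytes respond to loss of myelin by becoming reactive, a state marked by intermediate filament genes and by signalling through the gp130 receptors and the transcription factor STAT3. Cuprizone also acts on cells directly. By binding copper it disturbs mitochondrial enzymes, and damaged mitochondria can start the integrated stress response, in which the transcription factor ATF4 and its partners switch on genes for amino acid synthesis, amino acid uptake and tRNA charging. Oligodendrocytes need large amounts of cholesterol and sphingolipid for myelin, and astrocytes are the main source of cholesterol for the other cells of the adult brain. Proteins that are secreted or that sit in membranes are made by ribosomes bound to the endoplasmic reticulum, while cytosolic and nuclear proteins are made by free ribosomes, and ribosomes inside mitochondria make the few proteins encoded by the mitochondrial genome.

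The 5 deposited libraries are not 5 independent samples. No gene of 55471 had a lower value in cuprizone 2 or cuprizone 3 than in cuprizone 1, or in mock 1 than in mock 2. Among genes with 500 or more counts in the library that is repeated, 66% of the values of cuprizone 2, 67.9% of those of cuprizone 3 and 46.6% of those of mock 1 equalled it plus an integer from 1 to 10. Each of the 10 integers occurred about equally often, between 407 and 501 times in cuprizone 2. The remaining values were larger by a median of 1.13-fold in cuprizone 2, 1.14-fold in cuprizone 3 and 1.17-fold in mock 1. Cuprizone 1, with 20797535 counts on 19618 genes, and mock 2, with 21209517 counts on 19496 genes, are therefore the cuprizone library and the mock library throughout, and the other 3 serve as a check. With 1 library per group there is no measure of the spread between mice and no p-value. Levels are CPM (counts brought to a common library size) after scaling by TMM, ratios are log2 ratios of cuprizone over mock with a prior count of 2, and the exact (Clopper-Pearson) 95% intervals of count ratios cover counting error only. A count of 0 allows a level of up to 0.139 CPM in the cuprizone library and 0.146 CPM in the mock library, by a floor of 3 counts. The deposited values of 17 genes on which the results turn are plotted for all 5 libraries.

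**Figure D1:**
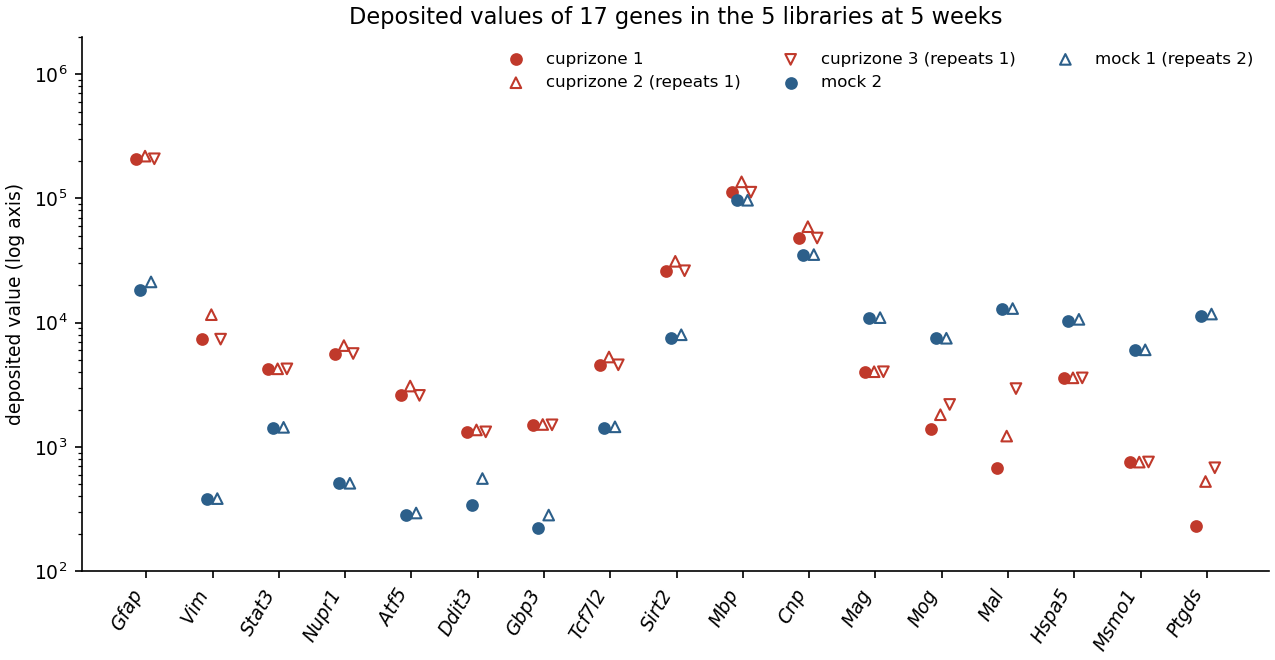
Deposited values, on a log axis, of 17 genes in the 5 libraries at 5 weeks, with cuprizone in red and mock in blue. Filled circles are cuprizone 1 and mock 2, and open triangles are the libraries that repeat them, which lie on or above the filled circle of their group for every gene shown (Gfap 208438 in cuprizone 1 against 208445 in cuprizone 3).

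A CPM of at least 5 in the cuprizone or the mock library was reached by 11570 genes, 11218 of them protein coding. Of these, 1029 (8.89%) were at least 2-fold higher in the cuprizone library and 1409 (12.2%) at least 2-fold lower, and 7069 (61.1%) differed by less than 1.5-fold. The median log2 ratio was -0.003. Among genes with 500 CPM or more in either library, 8 of 340 were higher by 2-fold or more and 55 lower. Among genes of 5 to 20 CPM the shares were 16.3% higher and 15.1% lower, so large ratios in both directions were common at low level. The cuprizone library had no count for 8 measured genes and the mock library none for 19.

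**Figure D2:**
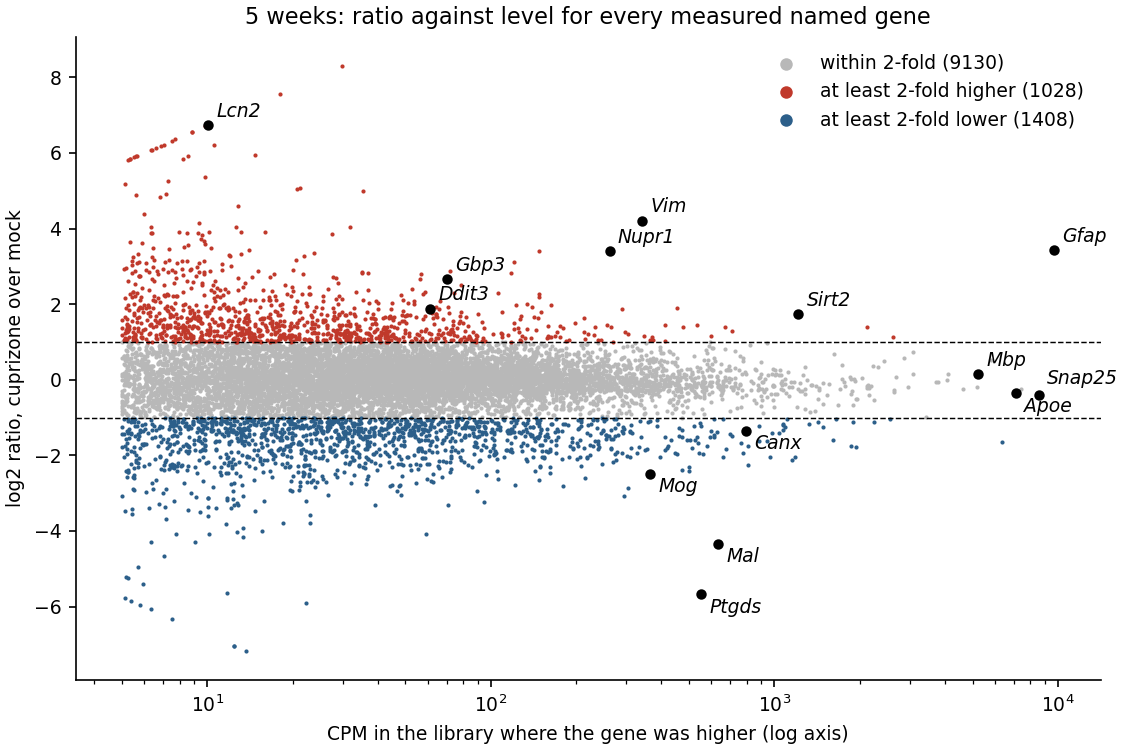
Log2 ratio of cuprizone over mock at 5 weeks against the CPM of the library in which the gene was higher (log axis), 1 point for each of the 11566 measured genes with a name. Dashed lines mark 2-fold. Gfap, Vim and Nupr1 lie far above the upper line, and Mog, Mal and Ptgds below the lower line, while Mbp and Snap25 lie between them.

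Most of the genes that were lower had a feature of their proteins in common. A measure of hydrophobicity chosen after the values were seen (the Kyte-Doolittle scale averaged over 19 residues, with a minimum of 1.8) was run on the longest reference protein of each measured gene. It marks most membrane-spanning segments and some signal peptides, and it misses others. Genes with such a hydrophobic stretch made up 2530 (21.9%) of the 11566 measured named genes, 981 (69.7%) of the 1408 that were lower and 128 (12.5%) of the 1028 that were higher. Their median log2 ratio was -0.72, and 38.8% of them were at least 2-fold lower. Of the 8343 genes without a stretch, 3.81% were at least 2-fold lower and the median log2 ratio was 0.11. The share that was lower grew with the number of stretches, from 31.8% of genes with 1 stretch to 38.3% with 2 to 3 and 53.9% with 4 or more. The 306 genes whose only stretch lies within the last 50 residues, which includes proteins inserted into membranes after translation, had a median of -0.19.

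The same separation appeared when genes were divided into 4 equal groups by transcript length, 4 by GC content and 4 ranges of level. Genes with a stretch had medians from -0.84 to -0.66 over the GC groups, from -0.78 to -0.58 over the length groups and from -0.90 to -0.68 over 4 ranges of mean CPM. Gene families separated in the same way. Among the solute carriers, the Slc25 family of mitochondrial carriers, which are made on free ribosomes, had a median log2 ratio of -0.06 over 37 genes, and 78 of the 161 others were at least 2-fold lower (median -0.99). Of 40 protocadherins and cadherins, which are cell adhesion proteins, 29 were at least 2-fold lower, as were 26 of 56 potassium channel (Kcn) genes and 11 of 16 receptor tyrosine phosphatase (Ptpr) genes. The vacuolar ATPase, the proton pump of lysosomes, was divided between its parts. Of the 8 measured genes for its membrane sector (Atp6v0) 4 were at least 2-fold lower, and of the 9 for its cytosolic sector (Atp6v1) none was. None of the 52 translation factors (Eif), 59 Rab GTPases, 32 ubiquitin-conjugating enzymes (Ube2) or 77 mitochondrial ribosomal proteins (Mrpl and Mrps) was at least 2-fold lower. All 9 measured genes of the mitochondrial genome were at least 2-fold lower, with a median of -1.89. Among them mt-Co1, which encodes a subunit of cytochrome oxidase, was at 34.5 against 129 CPM.

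The cuprizone library stood apart from the others in this respect. Genes with a hydrophobic stretch took 13.9% of the counts on measured genes in the cuprizone library and 21.6% in the mock library at 5 weeks. In the 7 libraries of the later times that repeat no other library the share was 20.3% to 24.7%. Those 2 limits were the mock and the cuprizone library at 7 weeks, in that order, with 20.3% also in mock 3 at 5.5 weeks. At 5.5 weeks the median log2 ratio was 0.09 for genes with a stretch and -0.02 for those without. At 7 weeks, with 1 library per group, the medians were 0.16 and -0.29, so the classes differed in the opposite direction to 5 weeks. Whether these mRNAs were less abundant in the tissue or were recovered less with the tagged ribosomes cannot be told apart with 1 cuprizone library. The class of a gene is therefore given beside the results below. Centring each ratio on the median of its class left 1172 genes higher and 846 lower by 2-fold or more.

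**Figure D3:**
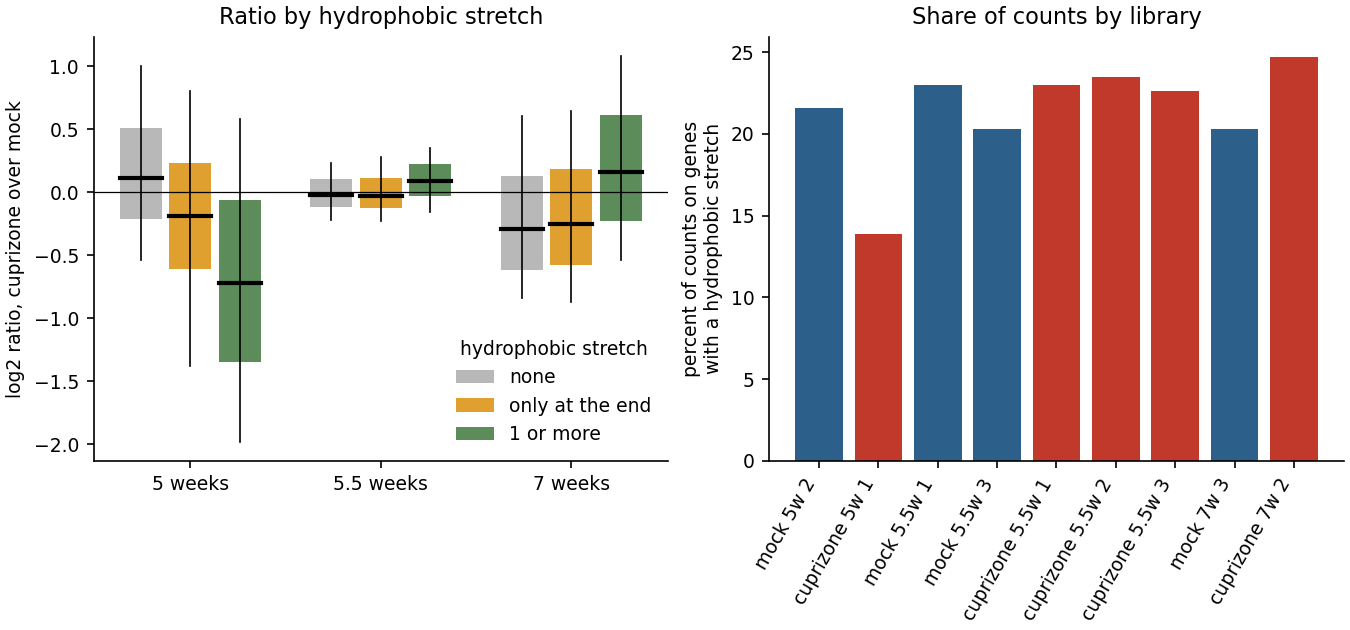
Left, log2 ratio of cuprizone over mock at 5, 5.5 and 7 weeks for genes with no hydrophobic stretch, with a stretch only at the end of the protein, or with 1 or more elsewhere; bars span the middle 50% of genes, thick lines are medians and thin lines run from the 10th to the 90th percentile of genes. Right, percent of counts on genes with a stretch in the 9 libraries that repeat no other. The cuprizone library at 5 weeks is at 13.9% and the other 8 are between 20.3% and 24.7%.

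Genes of reactive astrocytes were higher. Of the 15 genes listed as induced in reactive astrocytes of any kind, 11 were measured and 9 were at least 2-fold higher, none lower (median log2 ratio 2.85). Gfap, the astrocyte intermediate filament (ENSMUSG00000020932), had 208438, 218906 and 208445 in cuprizone 1, 2 and 3 and 21287 and 18461 in mock 1 and 2; the groups do not overlap, but for a gene that is higher this is largely fixed by the 2 repeated libraries. On the CPM scale it was at 9691 in cuprizone and 900.2 in mock, 10.8-fold higher (10.6 to 10.9), and it was the gene with the most counts in the cuprizone library. Vim, the filament it pairs with, was 18.6-fold higher (16.7 to 20.7), from 7362, 11603 and 7369 in the cuprizone and 384 and 378 in the mock libraries. Aspg, an asparaginase, was at 11.9 against 1.12 CPM, and the sphingosine phosphate receptor S1pr3, a membrane protein, at 58.6 against 11.6 CPM. Cd44, the hyaluronan receptor, was at 13.7 against 4.29 CPM. Nes, the filament of neural stem cells, had 190 counts in the cuprizone library and 0 in the mock library, which is at least 60.4-fold higher, but mock 1 has 29 counts, and with mock 1 the log2 ratio was 2.85 in place of 6.55. Of the 11 measured genes, 10 were at least 2-fold above the median of their class. Synm, a filament partner, was the exception with 16.9 against 23.6 CPM. At 5.5 weeks the list had a median log2 ratio of 1.81.

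The gp130 and STAT3 pathway was mixed. Socs3, the feedback inhibitor of the pathway, was at 8.46 against 0.488 CPM, 17.4-fold higher (9.22 to 36.8), with a log2 ratio of 3.88 that became 3.04 with mock 1 in place of mock 2. Stat3 itself was 2.83-fold higher (2.66 to 3.01). Cebpd, a transcription factor that STAT3 induces, was at 90.3 against 27.2 CPM, and the kinase Jak2 at 15.3 against 6.83 CPM, while the kinase Jak1 had a log2 ratio of 0.49. Of the receptor chains, Osmr had a log2 ratio of 0.54, gp130 itself (Il6st) of -0.51, Lifr of -1.04 and Cntfr of -1.63. These 4 receptors all carry a hydrophobic stretch. In all, 4 of 9 measured members were at least 2-fold higher and 2 lower.

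Some genes for membrane repair and the cell cortex were higher. Among 14 measured annexins and S100 proteins, calcium-binding proteins that act at membranes, 6 were at least 2-fold higher, with none lower (median 0.90). Anxa3 was at 21.3 against 0.536 CPM, S100a11 at 31.9 against 1.85 CPM and Anxa2 at 56.7 against 8.05 CPM. Of 21 measured actin regulators 7 were at least 2-fold higher, with none lower. The largest ratios were those of Ahnak, a giant scaffold beneath the membrane (3.35 on the log2 scale), and of moesin (Msn), which links actin to the membrane (2.498). The calponin Cnn3 was at 710 against 288 CPM, while Actb, the bulk cytoplasmic actin, was at 3568 against 3728 CPM.

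The integrated stress response was higher in part. Of 16 measured regulators 8 were at least 2-fold higher, with none lower (median log2 ratio 0.93). Nupr1, a stress-induced chromatin protein, had 5645, 6540 and 5648 in cuprizone 1, 2 and 3 and 510 and 509 in mock 1 and 2, and was 10.6-fold higher (9.66 to 11.6). Atf5, the ATF4 relative that acts in the mitochondrial stress response, was at 121 against 13.9 CPM. Trib3, a pseudokinase that restrains ATF4, was at 35.3 against 1.02 CPM. Ddit3, which encodes the transcription factor CHOP, was 3.71-fold higher (3.29 to 4.19) against mock 2 and had a log2 ratio of 1.46 against mock 1, and Eif4ebp1, a brake on translation, was at 57.5 against 11.7 CPM. Ppp1r15a and Sesn2, further ATF4 targets, had log2 ratios of 1.16 and 1.06, and neither was 2-fold higher when cuprizone 3 took the place of cuprizone 1 (0.97 and 0.88). Ppp1r15a also missed it with cuprizone 2 (0.96). The mRNA of Atf4 itself, whose protein is controlled mainly by translation, was at 60.8 against 80.1 CPM. Of the kinases that start the response, Eif2ak1 was at 80.9 against 72.3 CPM and Eif2ak4 at 5.72 against 7.07 CPM, and Eif2ak3, the kinase of the endoplasmic reticulum, did not reach 5 CPM.

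Metabolic targets of ATF4 were divided by pathway. Of 15 genes of serine, proline, asparagine and one-carbon synthesis 7 were at least 2-fold higher, with none lower (median 0.89), and none of the 15 has a hydrophobic stretch. Among the 7, Psph missed 2-fold with cuprizone 2 and with cuprizone 3 (log2 ratios 0.942 and 0.95), and Shmt2 with cuprizone 3 (0.931). Aldh1l2, the mitochondrial formyltetrahydrofolate dehydrogenase, was 9.39-fold higher (6.90 to 13.1), Pycr1 and Aldh18a1 of proline synthesis were at 36.8 against 7.07 CPM and at 62.5 against 20.04 CPM, and Mthfd2 was at 41.0 against 17.6 CPM. The entry enzymes of serine synthesis differed less, with log2 ratios of 0.55 for Phgdh and 0.46 for Psat1, and the asparagine synthetase Asns had 0.33. Of 20 cytosolic tRNA synthetases 2, Eprs and Mars, were at least 2-fold higher, and 18 had ratios above 0 (median 0.39). This share is near the 8.89% of all measured genes, and Mars missed 2-fold with mock 1 (log2 ratio 0.92). Mitochondrial tRNA synthetases, which are not classical ATF4 targets, had a median of 0.42 over 17 genes. Amino acid transporters, which all have hydrophobic stretches, were split, with 2 of 11 at least 2-fold higher and 5 lower. The cystine transporter Slc7a11 was at 48.7 against 16.4 CPM and the glutamine transporter Slc1a5 at 6.28 against 1.76 CPM, whereas Slc7a1, the carrier of arginine, was at 4.51 against 21.9 CPM. At 5.5 weeks the regulators had a median log2 ratio of 0.08 and the synthesis genes of -0.07.

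The promoters of several of these genes hold the composite element to which ATF4 binds with C/EBP partners. The letters TGATGNAA, or TTNCATCA on the other strand, were found in 4.51% of 27025 genes with a RefSeq promoter window (GRCm38.p6, 250 bases before to 50 after the start). They were found in 5 of the 15 regulators with a window, 3 of 13 synthesis genes, 5 of 12 cytosolic tRNA synthetases and 2 of 7 transporters. The 200 bases before the start are shown for the 4 genes with the largest ratios whose matches lie in that stretch, with the match in capitals. They are, on the minus strand in each case, Atf3 at chr1:191183334-191183533, Nupr1 at chr7:126625471-126625670, Pycr1 at chr11:120643749-120643948 and Slc7a11 at chr3:50443614-50443813.
Atf3: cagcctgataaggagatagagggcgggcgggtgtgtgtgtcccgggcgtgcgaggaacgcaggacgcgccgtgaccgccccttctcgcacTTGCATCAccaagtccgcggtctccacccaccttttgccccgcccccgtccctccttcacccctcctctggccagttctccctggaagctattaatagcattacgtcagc
Nupr1: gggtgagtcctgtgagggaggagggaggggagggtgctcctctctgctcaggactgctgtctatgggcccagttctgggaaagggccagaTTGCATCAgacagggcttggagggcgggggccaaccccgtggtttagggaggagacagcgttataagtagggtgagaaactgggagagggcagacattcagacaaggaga
Pycr1: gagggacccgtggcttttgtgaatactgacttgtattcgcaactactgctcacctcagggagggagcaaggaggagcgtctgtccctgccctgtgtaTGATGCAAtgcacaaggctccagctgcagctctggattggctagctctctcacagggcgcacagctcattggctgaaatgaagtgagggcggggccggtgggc
Slc7a11: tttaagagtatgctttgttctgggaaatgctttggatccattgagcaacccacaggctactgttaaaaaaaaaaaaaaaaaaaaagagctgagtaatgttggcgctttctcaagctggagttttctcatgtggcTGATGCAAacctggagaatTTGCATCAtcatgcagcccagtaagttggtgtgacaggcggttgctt
In Atf3 and in Nupr1 the match begins 110 bases before the start, in Pycr1 103 bases before it, and Slc7a11 has 2 matches, 66 and 47 bases before the start. A match is a description of these letters and does not show binding. Asns, with a log2 ratio of 0.33, and Slc1a4, with -2.23, hold the element as well. The log2 ratio of Atf3 was 5.92, or 2.31 with mock 1 in place of mock 2.

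The chaperones of the endoplasmic reticulum, which the unfolded protein response raises when proteins misfold there, were lower. Of 19 measured genes none was at least 2-fold higher and 12 were lower (median log2 ratio -1.11). Hspa5, which encodes the chaperone BiP, had 3591, 3599 and 3596 in cuprizone 1, 2 and 3 and 10640 and 10366 in mock 1 and 2, and was at 167 against 506 CPM. Hsp90b1 was at 75.1 against 302 CPM, calreticulin (Calr) at 97.6 against 333 CPM, calnexin (Canx) at 312 against 794 CPM and the disulfide isomerase Pdia6 at 56.5 against 223 CPM. Xbp1, a transcription factor of the response, was at 202 against 192 CPM, and Herpud1, a further target, at 77.8 against 85.7 CPM. The chaperones enter the endoplasmic reticulum as they are made, but the measure found a hydrophobic stretch in only 12 of the 19 genes. Of these 12, 10 were at least 2-fold lower, and of the 7 without a stretch 2 were, Hspa5 and P4hb. When each ratio was centred on its class 5 of the 19 were at least 2-fold lower (median -0.63). Among the 5 were Hspa5 (-1.71) and P4hb (-1.64), which were centred on the median of genes without a stretch. The cytosolic heat shock proteins behaved differently. Hspb6 and Hspb1, small heat shock proteins, were at 72.0 against 9.80 CPM and 6.23 against 0.780 CPM, and the co-chaperone Bag3 was at 13.02 against 5.02 CPM. The log2 ratio of Hspb1 was 2.85, or 4.01 with cuprizone 2, and that of Hspb6 was 2.87, or 2.06 with mock 1. The other 12 of 15 members were within 2-fold, among them Hspa8 at 1900 against 2130 CPM.

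Oxidative stress genes were higher in part. Of 18 measured targets of NRF2, the transcription factor of the oxidative stress response, 6 were at least 2-fold higher, with none lower (median 0.47). Hmox1, heme oxygenase, was 5.30-fold higher (4.56 to 6.18), the quinone reductase Nqo1 was at 21.3 against 6.05 CPM, and Gclm, the regulatory subunit of glutathione synthesis, at 175 against 65.8 CPM, while the catalytic subunit Gclc was at 23.5 against 23.7 CPM. Genes of copper handling differed little. Of 15 measured genes only Atp7a, a copper-exporting membrane pump, differed by 2-fold, at 1.58 against 6.83 CPM (log2 ratio -2.05, or -1.34 with cuprizone 3). The metallothionein Mt1 was at 821 against 434 CPM, the importer Slc31a1 at 19.7 against 28.1 CPM, and the copper enzyme Sod1 at 240 against 259 CPM. Of 12 measured iron genes 2 were at least 2-fold higher and 2 lower, and the transferrin receptor Tfrc was at 18.9 against 54.0 CPM.

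Interferon-inducible GTPases were higher. These guanylate-binding and immunity-related proteins are made in many cell types on exposure to interferon. Of 8 measured members 6 were at least 2-fold higher, with none lower (median 1.76). Gbp3 was at 70.0 against 10.9 CPM, 6.41-fold higher (5.57 to 7.41), Gbp7 at 39.4 against 9.31 CPM and Irgm1 at 73.8 against 26.9 CPM. Of 20 other interferon-response genes 6 were at least 2-fold higher, with none lower, led by Ifitm3 at 140 against 36.6 CPM and Oasl2 at 64.2 against 19.3 CPM. Isg15, a ubiquitin-like modifier, was at 19.3 against 12.9 CPM. Class I antigen presentation was split. The immunoproteasome subunits Psmb9 and Psmb8 were at 7.25 against 1.46 CPM and 24.6 against 9.12 CPM, whereas the class I molecule H2-D1 was at 111 against 230 CPM and the peptide loader Tapbp, a membrane protein, at 16.8 against 47.7 CPM. With mock 1 in place of mock 2, H2-D1 missed 2-fold (-0.75) and the log2 ratio of Psmb9 was 1.35 in place of 2.24. Markers of resting microglia, which also respond to interferon, summed to 141 CPM in cuprizone and 70.7 CPM in mock. At 5.5 weeks the GTPases had a median log2 ratio of 1.23.

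The letters GAAA, any 2 bases and GAAA again (on the other strand TTTC, any 2 bases and TTTC), the core of the element that interferon-activated factors bind, were found in the promoter windows of 7 of 7 GTPase genes with a window and of 8 of 16 other response genes, beside 3.99% of all genes with a window. The 4 members of the guanylate-binding family with the largest ratios lie in 1 cluster on chromosome 3. They are close copies of one another, so their promoters are not independent examples, and reads may have been divided between them in counting. Their 200 bases before the start, on the plus strand and with the match in capitals, are Gbp2 at chr3:142620463-142620662, Gbp3 at chr3:142559844-142560043, Gbp5 at chr3:142496734-142496933 and Gbp7 at chr3:142530136-142530335.
Gbp2: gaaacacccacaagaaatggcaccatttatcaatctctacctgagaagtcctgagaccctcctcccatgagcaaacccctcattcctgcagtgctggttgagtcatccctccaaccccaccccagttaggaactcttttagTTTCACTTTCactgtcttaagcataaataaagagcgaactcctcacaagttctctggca
Gbp3: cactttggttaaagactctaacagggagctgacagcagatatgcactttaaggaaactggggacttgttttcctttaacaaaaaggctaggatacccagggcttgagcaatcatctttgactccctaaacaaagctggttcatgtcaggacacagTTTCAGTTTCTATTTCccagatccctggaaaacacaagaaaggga
Gbp5: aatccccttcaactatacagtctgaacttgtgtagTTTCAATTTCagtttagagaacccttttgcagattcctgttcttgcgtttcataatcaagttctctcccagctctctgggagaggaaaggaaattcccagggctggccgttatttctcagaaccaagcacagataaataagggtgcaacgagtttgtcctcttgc
Gbp7: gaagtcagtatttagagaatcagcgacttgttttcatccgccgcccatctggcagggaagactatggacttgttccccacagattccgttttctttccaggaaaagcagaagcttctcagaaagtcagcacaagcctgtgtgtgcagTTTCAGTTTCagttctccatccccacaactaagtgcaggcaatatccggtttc
The match begins 59 bases before the start in Gbp2, 53 in Gbp7 and 165 in Gbp5, and in Gbp3 there are 2 overlapping matches, 45 and 39 bases before the start.

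Myelin genes were not lower as 1 group. Of 21 measured genes of compact myelin and its junctions 12 were at least 2-fold lower and none higher (median log2 ratio -1.51). Mal, a myelin proteolipid, had 673, 1223 and 2948 in cuprizone 1, 2 and 3 and 12993 and 12992 in mock 1 and 2, and was 20.2-fold lower in the cuprizone library (18.7 to 21.9). Its log2 ratio was -4.33 with cuprizone 1, -3.68 with cuprizone 2 and -2.40 with cuprizone 3. Mog was at 65.2 against 365 CPM and Opalin at 35.2 against 215 CPM. Mag, the adhesion protein of the innermost myelin layer, had 4027, 4031 and 4029 against 10979 and 10972, and was at 187 against 535 CPM. Mbp, which coats the inner face of the membrane and is made on free ribosomes, had 112222, 135967 and 112224 against 96664 and 96659, and was at 5217 against 4713 CPM. Cnp, a cytoplasmic enzyme of myelin, was at 2233 against 1722 CPM and Mobp at 327 against 482 CPM. Not all lower members have a hydrophobic stretch. Ppp1r14a, a phosphatase inhibitor, was at 9.95 against 94.4 CPM, Anln (anillin) at 7.02 against 70.9 CPM and Ermn at 118 against 339 CPM. Several of these values depend on the library. With cuprizone 2 the log2 ratio of Anln was -1.296 in place of -3.32, and with cuprizone 3 that of Ppp1r14a was -2.12 in place of -3.23 and that of Opalin -1.72 in place of -2.61. Among the enzymes of myelin lipid 9 of 14 were at least 2-fold lower, including Fa2h and Ugt8a, which make galactosylceramide (61.5 against 213 CPM and 32.2 against 68.1 CPM), and Aspa, the cytosolic enzyme that frees acetate for lipid synthesis (17.8 against 122 CPM). With mock 1 Ugt8a missed 2-fold (log2 ratio -0.79), as it did when scaled by total counts, and with cuprizone 3 the log2 ratio of Aspa was -1.84 in place of -2.77. The oligodendrocyte regulators Sox10 (66.5 against 44.2 CPM), Myrf (33.0 against 33.8 CPM) and Olig1 (367 against 391 CPM) were within 2-fold. In these bulk samples fewer cells of a type and less RNA per cell cannot be told apart. The summed level of compact myelin genes was 11100 CPM in cuprizone and 16970 CPM in mock.

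Genes of precursors and newly formed oligodendrocytes were higher in part. Of 17 measured members 7 were at least 2-fold higher and 1, the precursor proteoglycan Cspg4, was lower. Tcf7l2, which marks newly formed oligodendrocytes, was 3.08-fold higher (2.90 to 3.27), Bcas1, a marker of the same stage, was at 160 against 71.2 CPM, and Itpr2, a calcium channel of the endoplasmic reticulum found there, at 56.4 against 8.73 CPM. Olig2, needed throughout the lineage and also seen in some reactive astrocytes, was 4.06-fold higher (3.56 to 4.66). Pdgfra, the growth factor receptor of precursors, was at 18.8 against 37.2 CPM. Sirt2, a deacetylase of the oligodendrocyte cytoplasm, was at 1217 against 365 CPM. Bmp4, a signal that holds precursors back, was at 18.1 against 4.54 CPM, and its target Id3 at 366 against 175 CPM. With cuprizone 3 both Bcas1 (log2 ratio 0.97) and Id3 (0.87) missed 2-fold.

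Enzymes of cholesterol synthesis were lower, with a median log2 ratio of -1.01 up to lanosterol and -1.96 after it. Of the 10 measured enzymes from acetoacetyl-CoA to lanosterol 5 were at least 2-fold lower, and of the 9 after lanosterol 7 were, with none higher in either. Sqle, squalene epoxidase, was at 28.1 against 96.3 CPM and Fdft1, squalene synthase, at 74.7 against 265 CPM. After lanosterol, Msmo1, a sterol oxidase, had 754, 755 and 757 in cuprizone 1, 2 and 3 and 6047 and 6045 in mock 1 and 2, and was 8.41-fold lower (7.79 to 9.08). Tm7sf2 was at 3.90 against 26.1 CPM, Dhcr7 at 11.6 against 56.2 CPM and Cyp51 at 26.4 against 102 CPM. The cytosolic enzymes Mvk (26.3 against 27.5 CPM), Acat2 (111 against 125 CPM) and Lss (53.9 against 43.6 CPM) differed little. Hmgcs1, which is cytosolic, was at 237 against 473 CPM, at the edge of 2-fold, and together with Idi1 it lost the call when DESeq2 size factors were used or with mock 1 (log2 ratios -0.71 and -0.76). The log2 ratio of Tm7sf2 was -2.71, or -2.10 with cuprizone 3. A hydrophobic stretch was found in 2 of the 10 early and 8 of the 9 late enzymes. Centred on its class, 6 of the 10 early and 5 of the 9 late enzymes were at least 2-fold lower, with medians of -1.08 and -1.23.

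**Figure D4:**
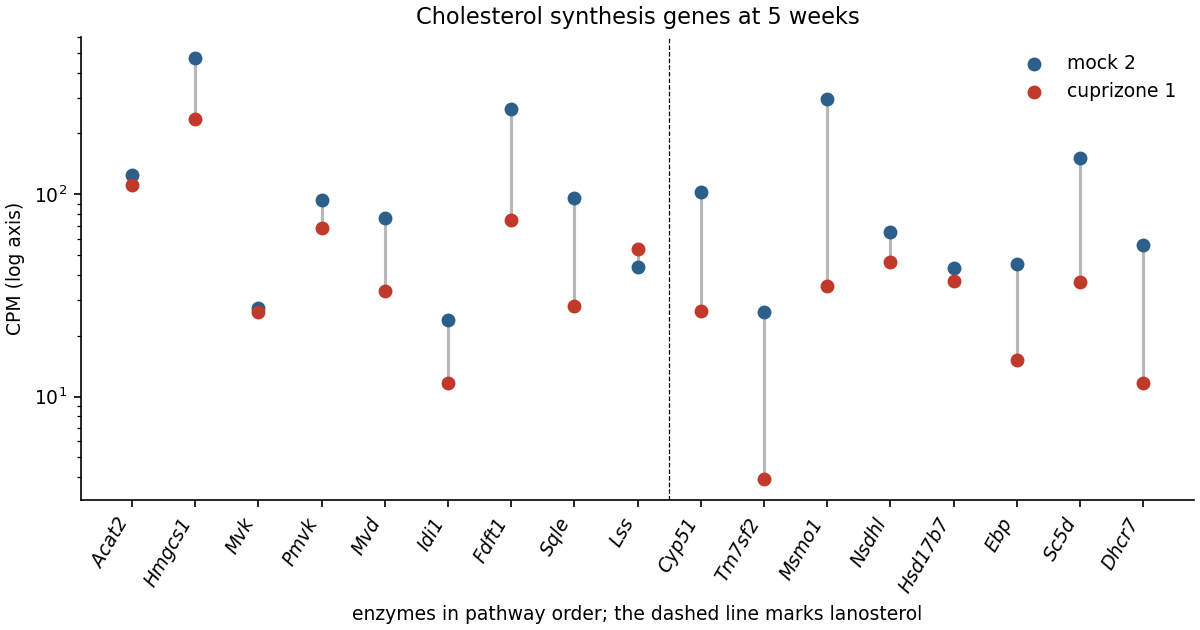
CPM, on a log axis, of 17 of the 19 measured enzymes of cholesterol synthesis in pathway order in the mock (blue) and cuprizone (red) libraries at 5 weeks. The dashed line separates the enzymes up to lanosterol from those after it. Msmo1 is at 295 CPM in mock and 35.1 CPM in cuprizone, whereas Mvk and Acat2 nearly coincide.

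Of 18 measured genes of sterol sensing and transport 7 were at least 2-fold lower and none higher. Insig1, a brake on the pathway, was at 18.1 against 78.4 CPM. The regulators Srebf2 and Scap were at 48.2 against 118 CPM and 9.76 against 24.2 CPM. Srebf2 was just short of 2-fold with mock 1 (log2 ratio -0.999). Lrp1, a lipoprotein receptor, was at 9.48 against 61.4 CPM. Exporters and their regulators did not follow, with Abca1 at 19.3 against 11.1 CPM, Abcg1 at 115 against 151 CPM and Apoe, the main lipid carrier made by astrocytes, at 5583 against 7114 CPM. The letters TCACNCCAC, or GTGGNGTGA, of the sterol element were found in 1 of 7 early enzymes with a promoter window, 0 of 8 late enzymes and 0 of 14 sensing genes, beside 1.44% of all genes. The gene that holds them is Hmgcs1, whose 200 bases before the start lie on the plus strand at chr13:119690151-119690350, with the match, in capitals, 137 bases before the start.
Hmgcs1: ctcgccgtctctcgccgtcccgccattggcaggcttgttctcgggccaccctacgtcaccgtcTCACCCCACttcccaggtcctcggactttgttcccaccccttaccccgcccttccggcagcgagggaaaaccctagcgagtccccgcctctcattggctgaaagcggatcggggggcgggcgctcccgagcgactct
Of 12 measured genes of fatty acid synthesis 3 were at least 2-fold lower and none higher. Fasn was at 74.2 against 63.8 CPM and Acly at 143 against 149 CPM, while the desaturases Scd1 and Scd2, which are membrane enzymes, were at 49.5 against 139 CPM and 390 against 1035 CPM.

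Markers of resting microglia were detected at low level, and most of those measured were higher. Of 19 markers of resting microglia 10 were measured, and 8 of these were at least 2-fold higher, with a summed level over the list of 141 CPM in cuprizone and 70.7 CPM in mock. Tyrobp, an adaptor of microglial receptors, was at 7.35 against 0.585 CPM (log2 ratio 3.45, or 2.63 with mock 1 in place of mock 2), and the complement gene C1qb at 29.8 against 8.49 CPM. The defining markers Tmem119 (48 against 38 counts), Csf1r (82 against 73 counts) and Trem2 (87 against 83 counts) were below 5 CPM in both libraries, and Itgam had no count in either. The list of disease-associated microglia was mixed, with 5 of 12 measured members at least 2-fold higher and 3 lower, a median log2 ratio of -0.13 and a summed level of 6393 against 8629 CPM. Its lower members include Ctsd and Ctsb, which other cells also express. Of the higher members, Spp1 had 212 counts against 0, which is at least 67.4-fold higher, though mock 1 has 7 counts, and Lgals3, a galectin, was at 27.6 against 1.804 CPM. Clec7a had 18 counts against 0, and Itgax had none in either library. Cd74, the invariant chain of class II molecules, was at 9.76 against 0.683 CPM. The part of microglial RNA in the interferon, lysosomal and phagocytic values was not tested.

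Many lysosomal genes were lower. Of 30 measured genes 15 were at least 2-fold lower and 1, the macrophage protein Cd68, was higher (median log2 ratio -1.06). Psap, the precursor of sphingolipid activators, was at 548 against 1862 CPM, cathepsin B (Ctsb) at 455 against 1092 CPM, Grn (progranulin) at 19.6 against 72.5 CPM and the galactosidase Gla at 2.88 against 13.7 CPM. The membrane protein Lamp1 was at 205 against 202 CPM. With mock 1 Ctsb missed 2-fold (log2 ratio -0.97), and the log2 ratio of Cd68 was 1.14 in place of 1.89. Of the 17 members without a hydrophobic stretch 9 were at least 2-fold lower. Among phagocytosis genes the bridging protein Mfge8 was at 96.2 against 395 CPM and the integrin Itgav at 15.4 against 69.6 CPM. The engulfment receptors Megf10 (11.8 against 19.9 CPM) and Mertk (12.3 against 22.8 CPM) were within 2-fold, and Rac1, the cytosolic GTPase downstream, was at 454 against 121 CPM.

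Astrocyte identity genes divided along the same line. Of 24 measured, none was called higher and 6 were at least 2-fold lower (median log2 ratio -0.21). Among the 6, Fgfr3 and Sparcl1 missed 2-fold with mock 1 (log2 ratios -0.935 and -0.757). Agt missed it with cuprizone 2 (-0.457 in place of -2.06). The 16 without a hydrophobic stretch had a median of 0.50 and the 8 with one a median of -1.13. The transcription factor Sox9, just under the limit, was at 595 against 298 CPM, the folate enzyme Aldh1l1 at 159 against 106 CPM and the glycolytic enzyme Aldoc at 5821 against 4045 CPM. The thyroid hormone transporter Slco1c1 was at 11.2 against 48.4 CPM and the serine transporter Slc7a10 at 17.2 against 72.1 CPM. Of the transporters that clear transmitters, Slc1a3 and Slc1a2 for glutamate were at 669 against 897 CPM and 1196 against 1898 CPM, and Slc6a11 for GABA at 16.04 against 57.0 CPM. The water channel Aqp4 was at 175 against 185 CPM.

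Neuronal mRNA was abundant in both libraries. Snap25, a cytosolic protein of synaptic vesicle fusion, had the most counts of any gene in the mock library, at 8581 CPM, and was at 6518 CPM in the cuprizone library. Of 17 measured vesicle genes 6 were at least 2-fold lower and none higher. The 6 were the membrane proteins Syp, Sv2a, Sv2b, Syt1, Slc17a7 and Slc17a6, with Syp, synaptophysin, at 27.1 against 143 CPM. Syt1 missed 2-fold with mock 1 (log2 ratio -0.94). The cytosolic Syn1 (668 against 638 CPM) and Vamp2 (1525 against 1876 CPM), whose membrane anchor is near its end, were within 2-fold. The neuronal markers summed to 6224 CPM in cuprizone and 5877 CPM in mock. Among activity-regulated genes, the synaptic gene Arc was at 68.0 against 225 CPM and Npas4 at 2.05 against 10.5 CPM, while Fos (69.5 against 89.6 CPM) and Jun (195 in both libraries) differed little. Among the 4 of 16 measured neuronal markers that were at least 2-fold lower was the neuropeptide Sst, at 4.37 against 13.6 CPM. Scg2, a granin of secretory granules outside the lists, was at 41.9 against 306 CPM.

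Proliferation genes were higher in part. Of 19 measured cell cycle genes 8 were at least 2-fold higher and 1 lower. Rrm2, the ribonucleotide reductase of S phase, was 4.73-fold higher (3.85 to 5.86), Mki67 was at 10.6 against 2.44 CPM and Top2a at 17.8 against 5.32 CPM, and the cell cycle inhibitor Cdkn1a at 94.8 against 36.9 CPM. The cyclins Ccnd1 and Ccnd2 had log2 ratios of 0.76 and 0.58. Among 13 measured growth factors only Fgf2, at 12.8 against 1.902 CPM, was at least 2-fold higher, and Bdnf and Nrg1 were lower. Of 19 cytokine and chemokine genes 7 were measured and none was higher. Cx3cl1, the membrane-bound ligand of the microglial receptor, was at 167 against 806 CPM, and Il34, a ligand of the receptor Csf1r, at 10.9 against 43.1 CPM.

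Core cellular machinery was close to mock. None of 47 ribosomal protein genes, 46 nuclear genes of the respiratory chain or 26 proteasome genes differed by 2-fold, with medians of -0.15, -0.20 and -0.15. Among 23 genes of glycolysis and glycogen, Gys1, the muscle form of glycogen synthase, differed by 2-fold (10.4 against 24.7 CPM), but not with mock 1 (log2 ratio -0.96). Markers of other cells were few. No endothelial or lymphocyte marker reached 5 CPM, with summed levels of 0.697 and 5.72 CPM in cuprizone and 4.83 and 1.804 CPM in mock, and Cdh5, Tek and Cd3e had no count in either library. Of 6 measured genes of ciliated ependymal cells 4 were at least 2-fold higher, among them the cilia regulator Foxj1 at 19.5 against 7.22 CPM (log2 ratio 1.42, or 2.59 with cuprizone 2).

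Large ratios were also seen outside the lists. Among genes of 50 CPM or more, the long noncoding RNA 9630013A20Rik was at 148 against 13.8 CPM, 10.8-fold higher (9.51 to 12.2). Creld1, a membrane protein of the endoplasmic reticulum, was at 11.4 against 89.4 CPM (log2 ratio -2.96, or -2.08 with cuprizone 2) and Sez6l2, a neuronal membrane protein, at 25.4 against 180 CPM. Of the listed meningeal markers, Ptgds, prostaglandin D synthase, which is made by oligodendrocytes and the meninges, had 229, 527 and 680 in cuprizone 1, 2 and 3 and 11735 and 11278 in mock 1 and 2, and was 51.6-fold lower (45.3 to 59.1), with a log2 ratio of -5.68 that became -4.31 with cuprizone 3. Of the genes with counts in the mock library and none in the cuprizone library, Vasn, a membrane protein that binds TGF-beta, had 281 counts (at least 98.2-fold lower), the ion channel Asic4 had 256 and Abcc8, a subunit of ATP-gated potassium channels, 255. In cuprizone 3 the same genes have values of 116, 32 and 10, and in cuprizone 2 of 1, 23 and 46, so the absence of counts is not shared by the libraries that repeat cuprizone 1. Of the 8 measured genes without a count in the cuprizone library 7 have a hydrophobic stretch, and of the 19 without a count in the mock library 4 do.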

How the data were processed

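RNA bound to HA-tagged ribosomes of dissected corpus callosum was sequenced. The deposited values are counts per gene, made by the authors with STAR 2.5.4b and featureCounts 1.6.0 after FastQC 0.11.9, per the submitters' processing notes. Those notes name GRCm38 and GRCm39 without a role, so no gene coordinate was taken from the count tables, and the strand setting is not given in the sources used here. Of 55471 identifiers 55144 were matched to a name. The deposited values of cuprizone 2, cuprizone 3 and mock 1 are whole numbers but repeat another library with additions, and were not treated as separate counts.

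Counts of cuprizone 1 and mock 2 were scaled by TMM (edgeR 4.0.16, R 4.3.3), genes reaching 5 CPM in 1 or both were kept, and log2 ratios were formed with a prior count of 2. A gene is called at 2-fold, with no test. The ratio step was tested on simulated data. Hydrophobic stretches came from GENCODE M21 coding sequences (11179 measured genes had a coding sequence). Promoters came from RefSeq (GRCm38.p6), matched by Ensembl identifier and, where that gave no match, by symbol. Named genes are the 10 highest and 10 lowest ratios at 50 CPM or more, key members and extremes of 59 gene lists, and the 10 largest counts opposite a 0 in each direction. Other list members are examples chosen after their values were seen. The members and lists were chosen with earlier results of these data known. Alternatives in scaling (DESeq2 1.42.0 size factors, total counts), prior count, filter and library are in the closing section. Some genes of the lists are counted in the totals but are not reported here by name.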

Additional observations from a re-analysis of the deposited data

Results flagged for a closer look

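Ttr, transthyretin, the thyroid hormone carrier made by the choroid plexus, had a log2 ratio of -3.06 at 5 weeks, from 67 counts in cuprizone 1 and 546 in mock 2. It moved the other way at 5.5 weeks, where its level was 9.81 to 33.2 CPM in 3 cuprizone libraries and 1.23 to 1.602 CPM in 2 mock libraries. The difference between the times was not tested, and time and batch cannot be told apart. The 5-week value also rests on the library used, since Ttr had 397 and 70 in cuprizone 2 and 3 and 2880 in mock 1, and the log2 ratio was -0.73 with cuprizone 2 and -5.16 with mock 1. The other choroid plexus markers at 5 weeks went both ways. Enpp2, which oligodendrocytes also express, was at 116 against 446.5 CPM, Otx2 had 37 counts against 0, Folr1 29 against 0, Clic6 35 against 17 and Kl 54 against 90, and Aqp1 and Kcne2 had no count in either library.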

How the results depend on the processing

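With 1 library per group no value has an error between mice, and genes of low count are limited by depth. The 1029 genes at least 2-fold higher and 1409 lower became 1078 and 1370 with DESeq2 size factors, 1236 and 1246 by total counts, and 860 to 1126 and 1226 to 1505 with the other deposited libraries or the group means. The counts moved further with the genes tested: 3323 and 4009 with no filter, 1927 and 2321 at a CPM of at least 1, and 454 and 878 at 20. Model fits count genes by an adjusted p under 0.05, with no minimum fold, so their counts differ in kind. Fits of the 9 libraries that repeat no other, which borrow their spread from the later times, gave 2959 and 3760 with edgeR and 2013 and 2584 with DESeq2 over a wider set of genes. Taking the 5 deposited libraries as replicates, although they repeat one another, edgeR gave 4420 higher and 3622 lower, and with a replicate block 3183 and 3375. Whether the replicate numbers pair the samples cannot be told from these values, because the libraries of a group repeat one another. Deviations of same-numbered libraries from their group means had correlations of -0.086 and -0.051 over 11566 genes. Centring within protein class, chosen after seeing the data, gave 1172 and 846. The share of genes with a stretch that were lower ranged from 31.6% to 43.8%, and of those without from 3.02% to 4.85%, over the alternatives, likewise chosen after seeing the data. Of 231 named genes at 2-fold or more, 15 missed it with cuprizone 2, 19 with cuprizone 3, 26 with mock 1, 14 with group means, 9 by total counts and 3 with DESeq2 size factors. Of the log2 ratios of named genes 3 reversed: Ccl3 was 0.45 with cuprizone 2, Pecam1 0.92 with cuprizone 3 and Dynlrb2 -0.004 with mock 1. The cause of these changes was not tested, except that a filter changes the number of genes counted.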

Other observations

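Notch genes and genes of the extracellular matrix, not described above, were mixed. Hes1, a transcription factor that Notch signalling induces, had a log2 ratio of 1.45, while the Notch ligand Dll3 had -1.74, with 1 of 10 measured members at least 2-fold higher and 1 lower. With cuprizone 3 in place of cuprizone 1 Dll3 had -0.51 and was no longer 2-fold lower. Of 15 proteoglycans and their partners 5 were at least 2-fold lower and 1 higher. The lower members include brevican (Bcan) and neurocan (Ncan), core proteins of the brain matrix, with log2 ratios of -1.62 and -1.68. In the other batch, at 5.5 weeks, the 2-fold limit was passed upward by 90 and downward by 10 of 11559 genes with a value at both times. Of the 90, 69 were among the 1024 genes called higher at 5 weeks. The 10 were all among the 1408 called lower at 5 weeks.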
